A study of Homo sapiens with 14 samples.

Results

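A set of 10 genes that bring uridine into the cell, salvage it, make it anew or phosphorylate its nucleotides was followed through mRNA libraries of HEK293T, a human cell line derived from embryonic kidney. They were found by symbol among the 57820 genes of the deposited tables: SLC29A1 for uptake, UCK1, UCK2, UCKL1 and UPP1 for salvage, CAD, DHODH and UMPS for synthesis, and CMPK1 and NME1 for phosphorylation. All 10 were measured, and all 10 passed the filters on low values in every comparison below. The cells had been given 4-thiouridine (s4U), a uridine analog that polymerases place in new transcripts, so these are genes of the route that the label itself would follow.

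As background, pyrimidine nucleotides reach RNA by a salvage route and a synthetic route. In salvage, equilibrative transporters such as SLC29A1 (ENT1) carry nucleosides across the membrane and uridine-cytidine kinases turn uridine into UMP, while uridine phosphorylase breaks uridine down to uracil. In synthesis, the multifunctional enzyme CAD performs the first steps, mitochondrial DHODH makes orotate and UMPS converts orotate to UMP. UMP-CMP kinase (CMPK1) and nucleoside diphosphate kinases (NME1, NME2) then raise either product toward UTP, the substrate of RNA polymerase.

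The conversion experiment comprised 4 groups of 2 libraries: Con (no s4U, no acrylonitrile), s4U (s4U for 24 h), Con-acrylonitrile (acrylonitrile only) and s4U-acrylonitrile (both). Acrylonitrile was applied to the isolated, fragmented polyadenylated RNA and not to the cells; it alkylates s4U so that it is read as C. The protocol gives 50 µM s4U for this experiment, whereas the sample labels give 50 µM for s4U and 500 µM for s4U-acrylonitrile, so the dose in the last group is uncertain. In a separate PDP experiment, cells received 0, 4 or 8 µM PDP, a molecule that binds and stabilizes G-quadruplexes, for 20 min and then 500 µM s4U for 1 h, with 2 libraries per dose and acrylonitrile in all 6. No source says that replicates came from separate cultures, so the p-values speak only of how these libraries varied, which may be technical.

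The conversion libraries held 6074118 to 17228999 fragments and the PDP libraries 9770956 to 22363992. Between 68.4% and 70.9% of fragments fell in genes in the acrylonitrile-treated conversion libraries, against 85.8% to 90.6% in the untreated ones. The 6 HEK293T markers examined (PAX2, LHX1, NEFM, INA, VIM and CDH2) were detected in all 14 libraries. VIM had a median of 511 FPM over these libraries and the next highest, NEFM, 94.0, so their sum mostly follows VIM. Of 6 markers of MCF7, the other line of the study, KRT19 was at 0 in 13 libraries and TFF1 in 11, whereas GATA3, GREB1 and, at no more than 0.623 FPM, ESR1 were present throughout. The summed level of the HEK293T markers was 215 to 383 FPM (fragments scaled to a common library total) in the s4U libraries and 518 to 529 in Con, and 566 to 634 against 595 to 596 in the acrylonitrile-treated pair of groups. That of the MCF7 markers was 24.2 to 36.1 against 91.0 to 93.4 FPM, and 41.4 to 44.4 against 77.3 to 84.3 with acrylonitrile; the part of these shifts in the results on s4U below was not tested.

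In untreated cells the levels per transcript length spanned a wide range. NME1 was highest, at 72.6 ± 2.1 FPKM (SD, n = 2, from the longest annotated transcript). CAD followed at 48.9 ± 1.4 FPKM and UCK2 at 47.1 ± 0.99, a gap within their summed SDs. UCKL1 stood at 39.8 ± 0.041 FPKM, SLC29A1 at 37.2 ± 0.48 and UCK1 at 17.3 ± 0.28. CMPK1 had 12.3 ± 0.95 FPKM and UMPS 7.72 ± 0.30, and the lowest were DHODH at 4.01 ± 0.059 and UPP1 at 3.59 ± 0.11.

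The main question here was how these genes differed after 24 h of s4U from untreated cells. UCK1, UCK2, UMPS and NME1 rose, UCKL1, CAD and SLC29A1 fell, and UPP1, CMPK1 and DHODH did not pass the test, which was the quasi-likelihood test of edgeR, adjusted over 18914 genes by Benjamini-Hochberg. That is 7 of 10 called, against 70.5% of all genes tested, so the share called was near the background. By direction, 4 of 10 were higher, against 35.8% of all genes, and 3 of 10 were lower, against 34.7%. The median absolute log2 fold change was 0.74 over the 10 genes and 0.95 over all genes. In bulk RNA, fewer cells of a kind and less RNA per cell cannot be told apart, and values are relative to the other transcripts of a library.

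**Figure D1:**
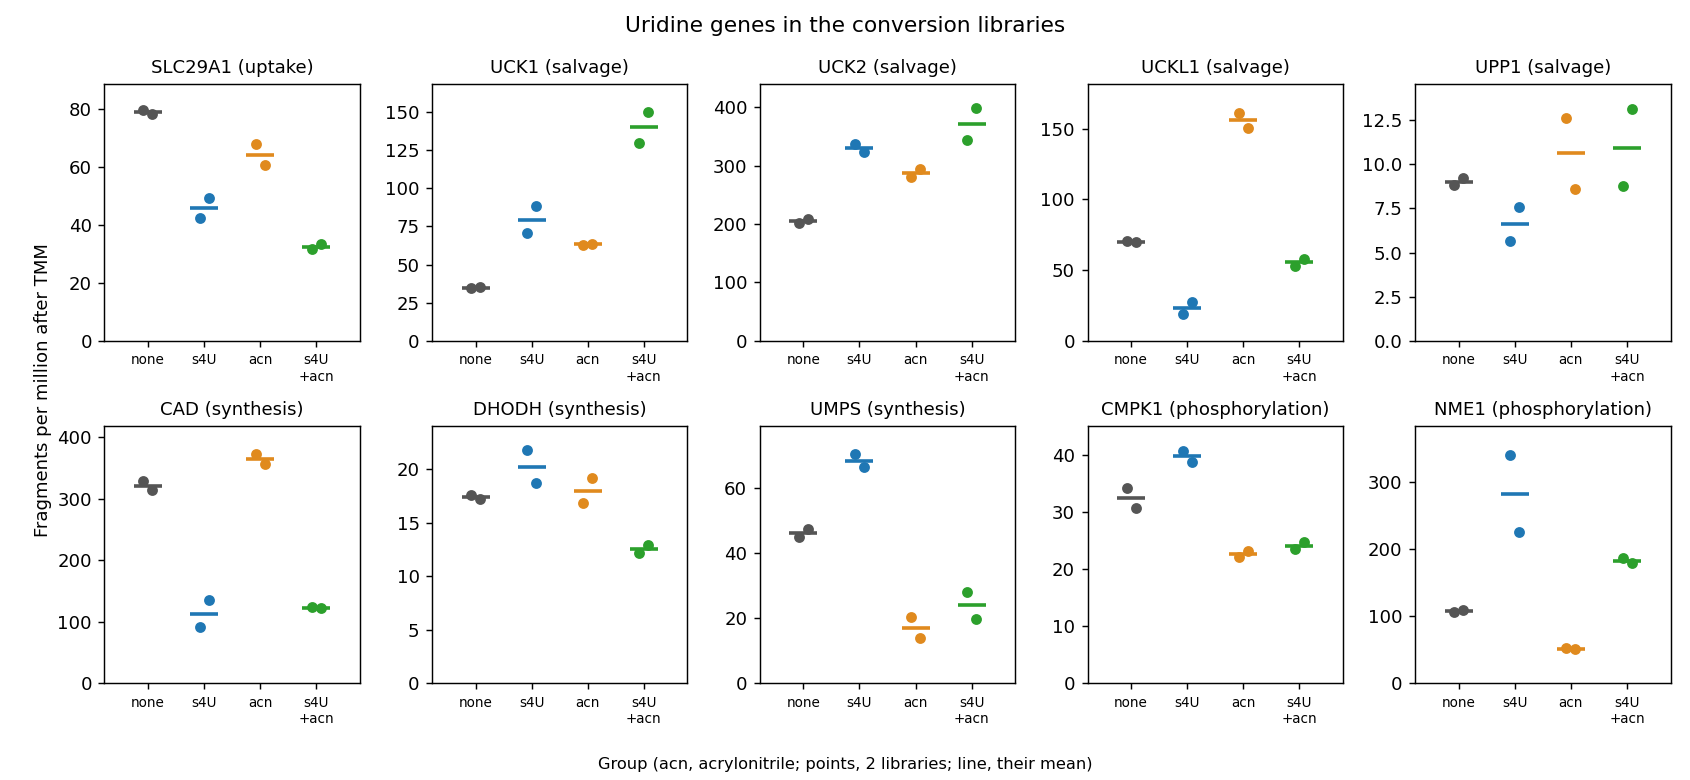
Levels of the 10 genes in the 8 conversion libraries, in CPM after TMM normalization (y axis, from 0, a separate scale for each gene) by group (x axis; acn, acrylonitrile); points are libraries and lines are means of 2. CAD, UCKL1 and SLC29A1 are lower with s4U than without it both with and without acrylonitrile, and UCK1, UCK2 and NME1 are higher in both.

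The transporter SLC29A1 (ENSG00000112759.12, chr6:44187242-44201888, plus strand, GRCh37) had 79.8 and 78.2 CPM (fragment counts scaled to a common library total after TMM normalization) in Con and 42.4 and 49.2 in s4U. It fell by 0.79 on the log2 scale (SE 0.12, edgeR adjusted p = 0.000225), a 1.72-fold lower level. The groups did not overlap, but this held for all 10 genes, called or not, and does not set SLC29A1 apart.

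The kinases of the salvage route did not move together. UCK1 (ENSG00000130717.8, chr9:134399188-134406655, minus strand) had 34.6 and 35.3 CPM in Con and 70.4 and 88.4 in s4U. Its rise was 2.27-fold (log2 1.19, SE 0.14, edgeR adjusted p = 3.45e-05). UCK2 (ENSG00000143179.8, chr1:165796768-165880855, plus strand), which had the higher level in untreated cells, went from 202 and 208 to 337 and 323. That was a 1.61-fold rise (log2 0.68, SE 0.12, edgeR adjusted p = 0.000678). UCKL1 (uridine-cytidine kinase 1 like 1, ENSG00000198276.9, chr20:62571186-62587769, minus strand) went the other way, from 70.2 and 70.0 to 19.003 and 27.7. Its level was 2.99-fold lower (log2 -1.58, SE 0.16, edgeR adjusted p = 1.58e-05), or log2 -1.06 with an adjustment for the GC content of transcripts. Uridine phosphorylase UPP1 (ENSG00000183696.9, chr7:48128225-48148330, plus strand) was measured from few fragments, 72 to 128 per library in Con and s4U. Its values were 8.81 and 9.19 in Con and 5.65 and 7.56 in s4U, with a log2 fold change of -0.44 (SE 0.25, edgeR adjusted p = 0.138).

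The synthesis enzymes also differed in direction. CAD (ENSG00000084774.9, chr2:27440258-27466811, plus strand) had 328 and 314 CPM in Con and 91.6 and 135 in s4U. It was 2.83-fold lower (log2 -1.50, SE 0.17, edgeR adjusted p = 3.05e-05). UMPS (ENSG00000114491.9, chr3:124449213-124464040, plus strand) rose from 45.0 and 47.5 to 70.4 and 66.4, a 1.48-fold change (log2 0.56, SE 0.17, edgeR adjusted p = 0.0141). The UMPS call was lost with scaling to library size alone (log2 0.28, adjusted p = 0.209), with an adjustment for transcript GC content (log2 0.40, adjusted p = 0.0506) and without either Con library (adjusted p = 0.0968 without replicate 1 and 0.0611 without replicate 2). DHODH (ENSG00000102967.7, chr16:72042487-72058954, plus strand) had 17.6 and 17.2 in Con and 21.8 and 18.7 in s4U, a log2 fold change of 0.21 (SE 0.15, edgeR adjusted p = 0.221). CAD, the first enzyme of the route, and UMPS, the last, thus lay on opposite sides.

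Of the phosphorylating kinases, NME1 (ENSG00000239672.3, chr17:49230897-49239789, plus strand) had 105 and 110 CPM in Con and 340 and 225 in s4U. It rose 2.62-fold (log2 1.39, SE 0.17, edgeR adjusted p = 5.61e-05), although its s4U libraries were far apart. NME1 has a close paralog, NME2, and an annotated readthrough gene, NME1-NME2, covers both. NME2 went from 313 and 307 to 1318 and 761 and the readthrough gene from 316 and 310 to 1362 and 770, so the counts of the last pair nearly coincided, and the split of reads among the 3 genes is uncertain. CMPK1 (ENSG00000162368.9, chr1:47799469-47844511, plus strand) had 34.3 and 30.7 in Con and 40.8 and 38.7 in s4U, with a log2 fold change of 0.29 (SE 0.12, edgeR adjusted p = 0.0546).

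All of the 10 genes but CMPK1 had a larger SD over the s4U libraries than over the Con libraries. Without s4U replicate 2, which leaves a single s4U library, UPP1 was at log2 -0.67, CMPK1 at 0.32 and DHODH at 0.32. Scaling to library size alone shifted the median of all genes from 0.02 to -0.26 on the log2 scale, and the calls became 3 higher and 4 lower in place of 4 and 3.

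The same contrast was available within acrylonitrile-treated RNA, from other libraries. No source says that these came from other cultures than the pair without acrylonitrile, which was applied only after RNA isolation. The second pair may thus not be an independent repeat of the s4U treatment. Here too 7 of 10 passed edgeR's test, against 64.2% of all genes: 3 of 10 higher, against 33.2%, and 4 of 10 lower, against 31.1%. UCKL1 fell by 1.49 on the log2 scale (SE 0.16), from 161 and 150 CPM to 53.2 and 57.6. CAD fell by 1.57 (SE 0.17), from 373 and 357 to 124 and 123. SLC29A1 fell by 0.99 (SE 0.13), from 68.0 and 60.5 to 31.6 and 33.4. These 3 had edgeR adjusted p of 3.15e-05, 3.36e-05 and 0.000111.

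Among those that rose, NME1 went from 52.6 and 50.9 to 186 and 179 CPM (log2 1.82, SE 0.18, edgeR adjusted p = 1.92e-05). UCK1 went from 63.1 and 63.7 to 130 and 150 (log2 1.14, SE 0.14, edgeR adjusted p = 6.73e-05). UCK2 went from 280 and 295 to 345 and 398 (log2 0.37, SE 0.12, edgeR adjusted p = 0.0244), a call lost under library size scaling (log2 0.11, adjusted p = 0.490), the GC adjustment (log2 0.20, adjusted p = 0.153) and without either Con-acrylonitrile library or s4U-acrylonitrile replicate 2. So SLC29A1, UCKL1 and CAD were lower and UCK1, UCK2 and NME1 higher with s4U in both pairs of groups.

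DHODH, not called without acrylonitrile, had 16.8 and 19.2 CPM in Con-acrylonitrile and 12.2 and 12.9 in s4U-acrylonitrile (log2 -0.52, SE 0.17, edgeR adjusted p = 0.0231). That call rested on 77 to 93 fragments per library and was lost under DESeq2 (adjusted p = 0.108), with no filter on low counts, and without either Con-acrylonitrile or either s4U-acrylonitrile library. UMPS was at 0.47 (SE 0.21, edgeR adjusted p = 0.0713), CMPK1 at 0.09 (SE 0.14) and UPP1 at 0.01 (SE 0.28).

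The difference between the s4U effects with and without acrylonitrile was tested as an interaction. No gene of the 10 passed edgeR's test or DESeq2, against 1.64% of all genes by edgeR, and 1 of them, DHODH, had an unadjusted p under 0.05 (difference in log2 fold change -0.73, SE 0.23, edgeR unadjusted p = 0.00927, edgeR adjusted p = 0.141). The differences of UCK1, UCKL1, CAD and UMPS lay between -0.09 and 0.09, with SEs of 0.19 to 0.27. NME1 differed by 0.43 (SE 0.25), UPP1 by 0.45 (SE 0.37) and UCK2 by -0.31 (SE 0.18); CMPK1 and SLC29A1 each differed by -0.20 (SEs 0.19 and 0.18). Without s4U replicate 1 the NME1 difference passed (0.76, adjusted p = 0.00135), and without s4U replicate 2 that of DHODH did (-0.82, adjusted p = 0.0110).

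**Figure D2:**
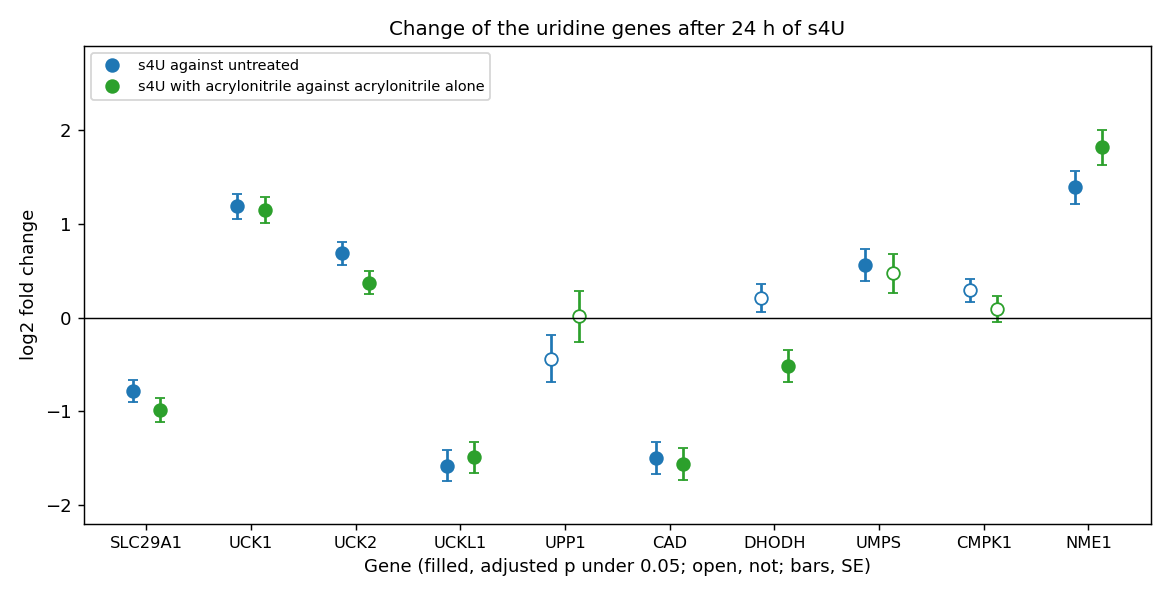
Log2 fold change (y axis) with SE of each gene (x axis) after 24 h of s4U, without acrylonitrile (blue) and with it (green), from edgeR; filled points have an adjusted p under 0.05. UCKL1, CAD and SLC29A1 are below 0 and UCK1, UCK2 and NME1 above 0 in both contrasts, while DHODH and UPP1 lie on opposite sides.

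Acrylonitrile alone also moved these genes. Against Con, 6 of 10 passed edgeR's test, against 59.8% of all genes. UCKL1 (log2 1.15, SE 0.16), UCK1 (0.86, SE 0.14) and UCK2 (0.48, SE 0.12) were higher, and UMPS (-1.41, SE 0.20), NME1 (-1.05, SE 0.18) and CMPK1 (-0.52, SE 0.13) were lower. The longest transcripts of the first 3 hold 61.7%, 58.0% and 49.7% G and C, and those of the last 3 hold 47.8%, 47.8% and 37.9%. Over the 18237 genes with a value, the fold change of this contrast had a Spearman correlation with GC content of 0.698, against -0.207 and -0.173 for the s4U contrasts; genes are not independent, and this is a description. The UCK2 call was lost without any of the 4 libraries (edgeR adjusted p = 0.0509 to 0.0895) and the CMPK1 call without Con replicate 1 (adjusted p = 0.0785). With the GC adjustment UCKL1 was at log2 -0.002 and UCK1 at 0.10, neither called, CMPK1 was called in the other direction (0.42, adjusted p = 0.0372), and CAD (-0.55, adjusted p = 0.0193) and SLC29A1 (-0.97, adjusted p = 0.000242) were called lower. The s4U contrasts above are each made within 1 state of acrylonitrile treatment.

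Other genes of nucleotide metabolism moved in both directions after s4U (without acrylonitrile). Of the other nucleoside transporters, 5 of 6 tested passed, against 70.5% of all genes, with 3 higher (35.8% of all genes) and 2 lower (34.7%). SLC29A4, a membrane transporter of the same family as SLC29A1, had 41.2 and 40.4 CPM in Con and 3.93 and 5.18 in s4U (log2 -3.15, SE 0.16). SLC29A2 (ENT2) went from 84.9 and 91.7 to 14.998 and 18.1 (log2 -2.41, SE 0.13). SLC28A1, a sodium-coupled concentrative transporter, was near the detection limit in Con at 0.413 and 0.304 and had 4.40 and 5.75 in s4U. Within acrylonitrile the list also had 5 of 6 called, against 64.2% of all genes, 3 higher (33.2% of all genes) and 2 lower (31.1%).

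In the list of UTP and CTP supply, 5 of 9 passed, against 70.5% of all genes, 2 higher (35.8% of all genes) and 3 lower (34.7%). They included the paralog NME2 (log2 1.75, SE 0.22, higher), NME3 (-0.87, SE 0.12) and cytidine deaminase CDA (-2.36, SE 0.31). Within acrylonitrile, 6 of 12 genes of dTMP and deoxynucleotide supply passed, against 64.2% of all genes, 2 higher (33.2% of all genes) and 4 lower (31.1%). The list median there was -0.09, in place of -0.36 without acrylonitrile. Without acrylonitrile, 8 of 12 passed, against 70.5% of all genes, 1 higher (35.8% of all genes) and 7 lower (34.7%). The 1 that rose was deoxycytidine kinase DCK, from 14.7 and 13.9 to 27.3 and 29.0 CPM (log2 0.98, SE 0.14), while mitochondrial thymidine kinase TK2 fell from 11.2 and 10.2 to 0.628 and 0.937 (log2 -3.72, SE 0.26). DUT, which hydrolyses dUTP, was at -0.96 (SE 0.15). The nucleotidases and breakdown enzymes had 8 of 9 called, against 70.5% of all genes, 3 higher (35.8% of all genes) and 5 lower (34.7%). Among them were NT5M (-1.99, SE 0.28) and thymidine phosphorylase TYMP (-1.45, SE 0.20). Within acrylonitrile 6 of 9 were called, against 64.2% of all genes, 2 higher (33.2%) and 4 lower (31.1%). Dihydropyrimidinase DPYS was near 0 in Con, at 0.275 and 0.0760 CPM, and had 13.5 and 15.2 in s4U.

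The list of UDP-sugar and UTP-using enzymes had 6 of 10 called, against 70.5% of all genes, 2 higher (35.8% of all genes) and 4 lower (34.7%). ENTPD5, which hydrolyses UDP, was at -1.97 (SE 0.18), and GALT, which exchanges UDP-glucose with galactose phosphate, at -1.30 (SE 0.14). Within acrylonitrile, purine synthesis and salvage had 10 of 15 called, against 64.2% of all genes, 4 higher (33.2% of all genes) and 6 lower (31.1%), with a median of 0.07. Without acrylonitrile it was 8 of 15, against 70.5% of all genes, 2 higher (35.8% of all genes) and 6 lower (34.7%). PRPS1, which makes the ribose phosphate donor used by both purine and pyrimidine synthesis, had 118 and 111 CPM in Con and 319 and 177 in s4U (log2 1.11, SE 0.22), ATIC was at -1.04 (SE 0.11) and IMPDH1 at -0.78 (SE 0.17). The list medians ran from -0.53 for nucleotidases and breakdown to 0.03 for transporters, against 0.02 for all genes. The genes named from these lists were taken from the 3 largest called changes of each list.

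Label in the fragments of each gene was read from their mismatches. In s4U-acrylonitrile, the percentage of a gene's fragments bearing 1 mismatch or more, read here as T-to-C although the counts carry no mismatch type, was 96.1% ± 1.6 for UMPS (SD, n = 2), 94.2% ± 0.71 for CAD, 92.8% ± 2.6 for DHODH, 92.4% ± 1.7 for UCKL1, 92.1% ± 2.2 for UCK1 and 90.0% ± 0.58 for SLC29A1. CMPK1 had 89.3% ± 4.1, UPP1 88.7% ± 5.1 and UCK2 86.6% ± 3.1. The median of the 10 was 91.1%, and that of 13786 genes with at least 20 fragments per library was 91.7%, with quartiles of 85.8% and 94.4%. Neighbours in this order differed by less than their summed SDs.

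NME1 stood apart. Its share was 57.0% ± 1.1, with 56.2% of 1418 fragments in replicate 1 and 57.8% of 1068 in replicate 2, and only 5.68% of all genes had a lower one. The overlap with the readthrough gene applies to this value too. In the same libraries the level of NME1 was 3.52-fold that in Con-acrylonitrile, at 186 and 179 CPM against 52.6 and 50.9. On this scale its unmarked fragments alone stood above the level in Con-acrylonitrile. How this rise goes together with its many unmarked fragments was not tested.

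In the 6 libraries without both s4U and acrylonitrile, the shares were 3.51% to 16.2% for the 9 genes other than UPP1. For UPP1 they reached 33.3% in s4U replicate 1, of 72 fragments. For each of the 10 genes both s4U-acrylonitrile values exceeded the 6 others, which gives p = 0.0357 in an exact two-sided permutation test over 28 splits, the smallest p this design allows. The 6 others pool Con, s4U and Con-acrylonitrile. Only s4U with acrylonitrile is meant to yield these mismatches, so the order was set by the chemistry and the p adds nothing to it. All 10 genes share this p, so it does not tell them apart.

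**Figure D3:**
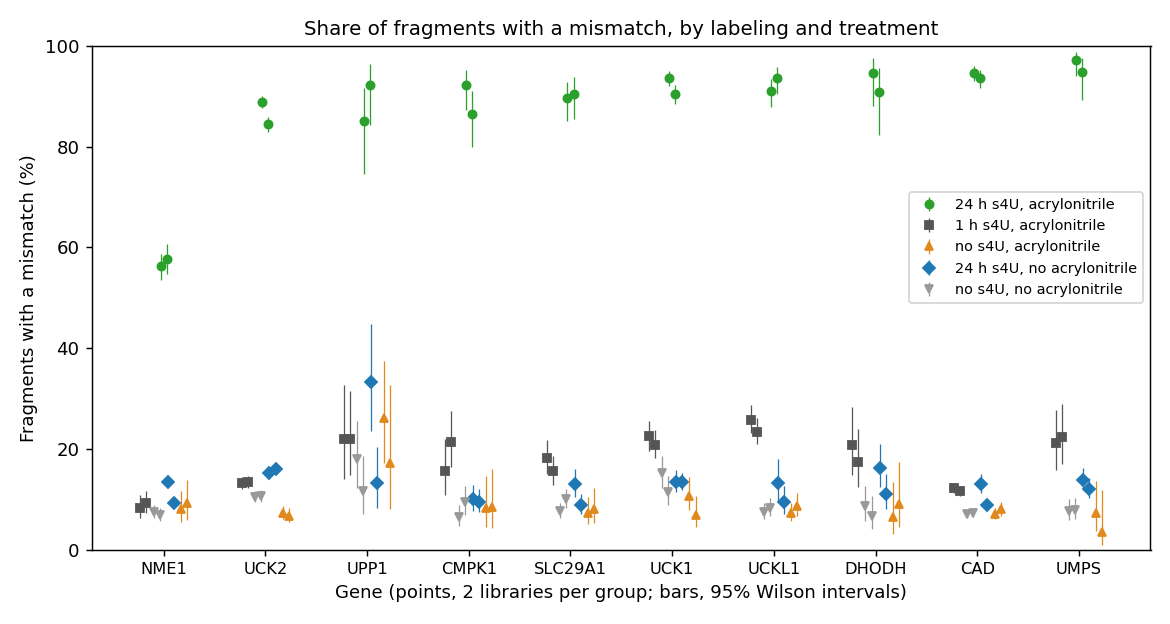
Percentage of fragments bearing 1 mismatch or more (y axis, percent) for each gene (x axis, ordered by the share after 24 h of s4U) in 5 groups of 2 libraries; bars are 95% Wilson intervals, which cover counting error only. After 24 h the values lie between 84.4% and 97.2% for all genes but NME1, which is at 56.2% and 57.8%, and after 1 h they lie between 8.26% and 25.8%.

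Labeling for 1 h, in the PDP libraries without PDP, gave labeled shares that differed between the genes. UCKL1 had the highest labeled share, 25.8% and 23.4%, and CAD had 12.2% and 11.6%. By the formula of the study, with 60 min of labeling and no background subtracted, the mean half-life was 2.46 ± 0.19 h for UCKL1 (SD, n = 2), 2.83 ± 0.13 h for UMPS and 2.84 ± 0.18 h for UCK1. DHODH at 3.30 ± 0.44 h, CMPK1 at 3.47 ± 0.84 h and SLC29A1 at 3.79 ± 0.47 h differed from each other by less than their summed SDs. UCK2, at 4.88 ± 0.059 h, and CAD, at 5.48 ± 0.20 h, had longer values that did not overlap between libraries. The median of the 10 was 3.38 h, and that of 12811 genes was 3.17 h.

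The labeled shares of UPP1 (21.9% and 22.0%) were below its pooled share in acrylonitrile-treated RNA without s4U, 23.1%, and those of NME1 (8.26% and 9.24%) lay on either side of its pooled share, 8.48%. Their values of 2.80 ± 0.0062 h and 7.60 ± 0.62 h thus could not be separated from background in both libraries. For the other 8 genes, subtracting that background raised the median to 5.89 h, CAD to 14.3 ± 1.3 h and UCK2 to 10.0 ± 0.25 h, and left UCKL1 the shortest at 3.47 ± 0.38 h. The background comes from another experiment.

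The PDP experiment asked which RNAs made within the hour of labeling changed. In labeled RNA at 8 µM, 4 of 10 genes passed edgeR's test, against 37.7% of 14236 genes, and at 4 µM 3 of 10, against 29.0%. UCKL1 had 25.5 and 23.1 labeled FPM without PDP, 10.9 and 13.2 at 4 µM and 7.51 and 9.80 at 8 µM, so the 3 doses did not overlap. It fell by 1.01 on the log2 scale at 4 µM (SE 0.11, edgeR adjusted p = 2.69e-15) and by 1.50 at 8 µM (SE 0.12, edgeR adjusted p = 3.02e-27). No background was subtracted from labeled FPM. The labeled share of UCKL1 at 8 µM was 9.96% and 13.6%, against its pooled share of 7.84% in acrylonitrile-treated RNA without s4U. UCK1 had 17.2 and 15.3 FPM without PDP, 12.7 and 12.4 at 4 µM and 10.8 and 9.91 at 8 µM. It fell by 0.37 (SE 0.12, edgeR adjusted p = 0.0111) and by 0.64 (SE 0.13, edgeR adjusted p = 4.32e-06). The 4 µM call on UCK1 was lost under DESeq2 (adjusted p = 0.0881) and without PDP-0 replicate 1 (adjusted p = 0.205).

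CAD had 49.7 and 50.5 labeled FPM without PDP and 41.5 and 40.8 at 8 µM, a fall by 0.28 (SE 0.079, edgeR adjusted p = 0.00171) that was not called with TMM scaling (log2 -0.13, adjusted p = 0.174). Its labeled share at 8 µM, 8.14% and 8.50%, was near its pooled share of 7.48% in acrylonitrile-treated RNA without s4U, so much of this labeled FPM may be background. NME1 was called higher at 8 µM (log2 0.46, SE 0.17, edgeR adjusted p = 0.0258), from 5.01 and 6.06 to 8.09 and 7.13 FPM, and UMPS at 4 µM (0.53, SE 0.20, edgeR adjusted p = 0.0351), from 3.89 and 3.88 to 5.59 and 5.60. Both were lost under DESeq2 (adjusted p = 0.150 and 0.160), NME1 also without PDP-0 replicate 1 or PDP-8 replicate 1 (adjusted p = 0.262 and 0.192) and UMPS without any of its 4 libraries (adjusted p = 0.0723 to 0.165), and the labeled share of NME1 without PDP lay around its background, as above. UCK2, the paralog of UCK1, had 37.8 and 38.5 FPM without PDP and 34.6 and 32.8 at 8 µM (log2 -0.18, SE 0.085, edgeR adjusted p = 0.0895).

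**Figure D4:**
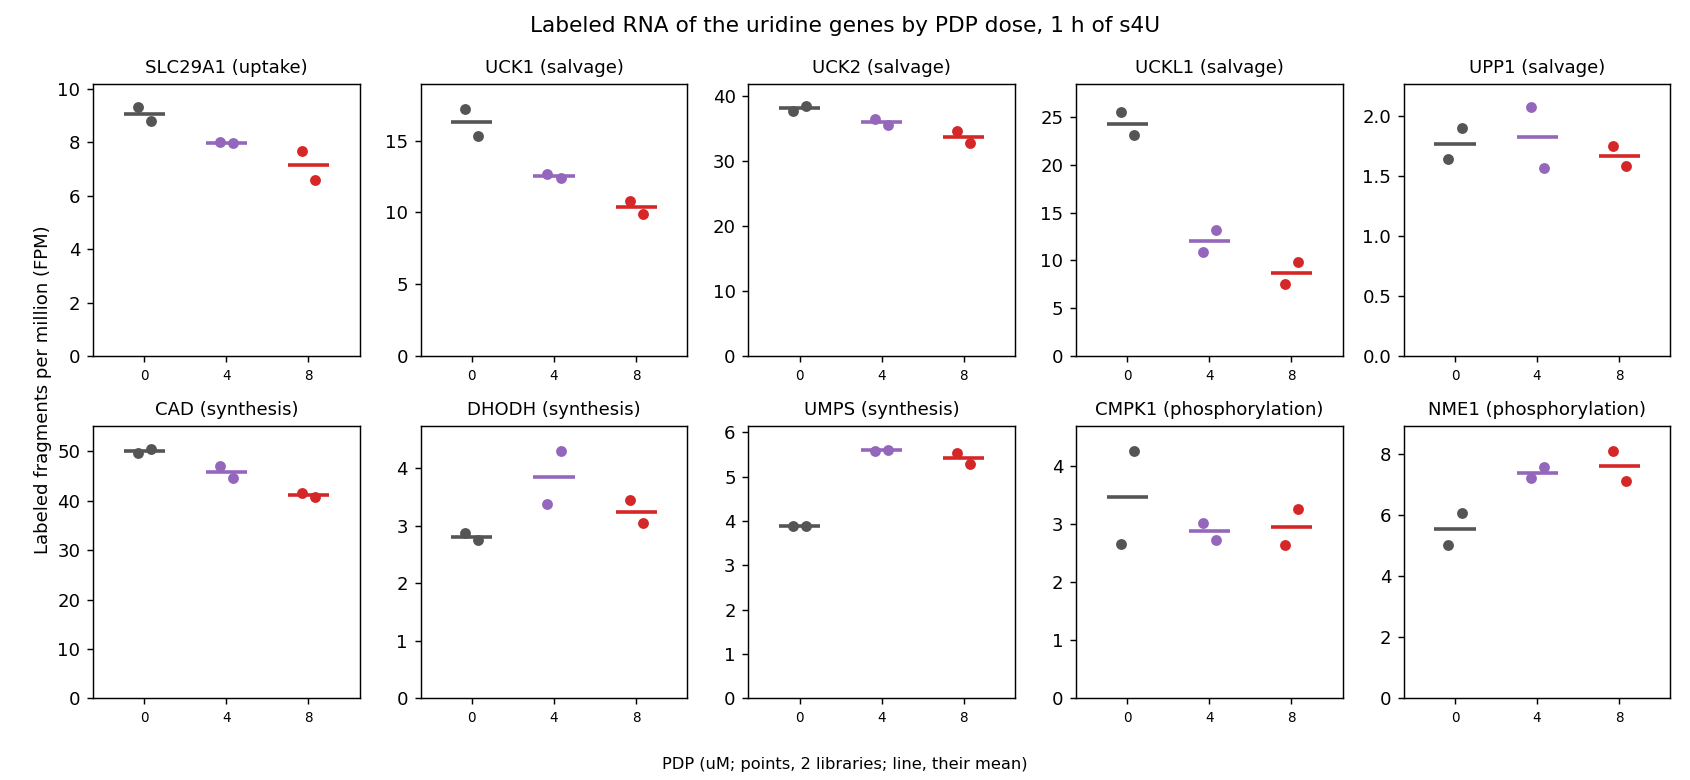
Labeled FPM (y axis, from 0, a separate scale for each gene) at 0, 4 and 8 µM PDP (x axis); points are libraries and lines are means of 2. UCKL1 falls from 25.5 and 23.1 to 7.51 and 9.80 and UCK1 from 17.2 and 15.3 to 10.8 and 9.91. Values of UPP1 and CMPK1 at 0 µM overlap those at 4 and at 8 µM. Those of DHODH and NME1 overlap only between 4 and 8 µM.

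Total RNA was tested in the same way. At 8 µM 7 of 10 genes passed, against 60.5% of 15473 genes, and at 4 µM 8 of 10, against 58.3%, with the authors' library sizes. With those sizes the median of all genes was at log2 0.33 at 8 µM and 0.32 at 4 µM, and with TMM at 0.02 and 0.01. The calls at 8 µM were 5 higher and 2 lower, and with TMM 1 higher and 4 lower; at 4 µM they were 6 and 2, and with TMM 2 and 4. Called in the same direction under both scalings at 8 µM were UMPS (0.87 at 8 µM, SE 0.10), UCKL1 (-0.42, SE 0.066) and UCK2 (-0.17, SE 0.049), the last not without PDP-0 replicate 1 or 2 (adjusted p = 0.0522 and 0.0612). UCKL1 had 98.9 and 98.6 total FPM without PDP and 75.4 and 71.8 at 8 µM. UCK1 was at 0.03 (SE 0.068) with the authors' sizes and was called lower with TMM (-0.27, adjusted p = 0.00115). CAD was higher by 0.23 (SE 0.048) with the authors' sizes and at -0.07, not called, with TMM. The GC adjustment was made only in the conversion fits, so no PDP call in labeled or total RNA includes it. With the authors' sizes at 8 µM, UMPS, NME1 (0.46) and CMPK1 (0.47) were higher and UCKL1 and UCK2 lower. Each of these was opposite to its change with acrylonitrile alone. The part of GC content in the PDP results was not tested.

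Because PDP binds G-quadruplexes, the 250 bases before each annotated start site in RefSeq (GRCh38.p14) were searched on both strands for 4 runs of at least 3 G with loops of 1 to 7 bases. The motif was found for 4 of the 10 genes (UCK2, CAD, DHODH and SLC29A1), and in 23.5% of 35116 such windows in all. Some genes have several windows, and a match in at least 1 counted for the gene, so these figures are not in the same unit. Matches may overlap each other. No match was found in the windows of UCKL1 and UCK1, whose labeled RNA fell at both doses; this says only that these letters are not in this window. The windows of UCKL1 (chr20:63956417-63956666, minus strand), UCK1 (chr9:131531264-131531513, minus strand) and UCK2 (chr1:165827364-165827613, plus strand) are shown to compare the kinases, 5′ to 3′ on the gene's strand, with motif matches in capitals.
UCKL1: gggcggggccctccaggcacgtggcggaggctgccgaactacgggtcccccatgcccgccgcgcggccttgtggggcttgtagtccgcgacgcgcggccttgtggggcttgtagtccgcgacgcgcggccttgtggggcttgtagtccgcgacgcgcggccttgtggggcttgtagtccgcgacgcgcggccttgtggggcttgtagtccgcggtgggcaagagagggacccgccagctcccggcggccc
UCK1: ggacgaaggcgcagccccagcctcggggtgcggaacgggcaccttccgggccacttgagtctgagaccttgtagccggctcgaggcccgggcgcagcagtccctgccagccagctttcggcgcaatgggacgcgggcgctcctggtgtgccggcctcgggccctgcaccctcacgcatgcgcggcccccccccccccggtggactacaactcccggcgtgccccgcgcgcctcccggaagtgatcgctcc
UCK2: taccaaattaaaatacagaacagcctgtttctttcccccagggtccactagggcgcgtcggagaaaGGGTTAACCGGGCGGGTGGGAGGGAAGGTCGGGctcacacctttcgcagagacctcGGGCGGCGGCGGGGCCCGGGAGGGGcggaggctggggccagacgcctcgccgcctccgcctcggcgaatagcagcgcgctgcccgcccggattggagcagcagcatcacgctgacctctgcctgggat
The UCKL1 window holds a unit of 31 bases repeated exactly 4 times in tandem; exact tandem repeats of at least 3 copies, with units of 10 to 60 bases, were found in 0.336% of all windows.

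UCK1, UCK2, UCKL1 and CAD can also be set side by side between the experiments, which differ in dose, time and treatment, so no comparison was made. Without PDP and after 1 h of 500 µM s4U, the total FPM were 76.5 and 73.6 for UCK1, 287 and 289 for UCK2, 98.9 and 98.6 for UCKL1 and 409 and 436 for CAD. In Con-acrylonitrile they were 44.4 and 42.6, 197 and 197, 113 and 101, and 262 and 239. In s4U-acrylonitrile they were 77.3 and 82.6, 205 and 219, 31.6 and 31.6, and 73.5 and 67.3. These values are on the FPM scale of all fragments of a library, not the TMM scale used above.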

How the data were processed

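Per the study's methods and the submitters' processing notes, the authors trimmed directional paired-end reads with cutadapt 1.18, collapsed identical reads, removed ribosomal RNA, aligned to GRCh37 with HISAT2 2.1.0, kept unique proper pairs, left out mismatches at polymorphisms and assigned fragments to GENCODE v19 genes. The deposited tables hold counts of fragments per gene by number of mismatches for the conversion libraries, and counts of total and labeled fragments, with FPM values that the authors scaled as RPM to all fragments of a library, for the PDP and half-life libraries. FPM values given here were computed from the counts and the deposited library sizes; MCF7 libraries are not analysed here.

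Counts were tested with edgeR 4.0.16 in R 4.3.3 (quasi-likelihood): the 4 conversion groups in 1 fit with TMM and its filter on low counts, the 3 PDP doses in 1 fit for each kind of count with the authors' library sizes and a minimum mean of 1 FPM (total) or 0.5 FPM (labeled). A call is a Benjamini-Hochberg adjusted p under 0.05 over all genes tested. Transcript length and GC content came from GENCODE v44lift37 and had a value for 96.4% of genes tested. Groups follow the labels. Named genes are the 10 and, from each other list, at most the 3 largest called changes after s4U; 1 gene that this rule names is not reported here. The genes and lists were chosen with earlier results of these data known. Alternatives covered scaling, DESeq2 1.42.0, limma 3.58.1, filters, the replicate number as a block and each library left out. A GC spline of 6 degrees of freedom was an alternative for the conversion fits only. The tests were checked on simulated counts with a single fixed spread and few changed genes, a setting unlike these data. For s4U against untreated, 52% of planted 1.5-fold changes and 94% of planted 2-fold changes were recovered. At 8 µM PDP these were 18% and 61% in labeled RNA and 48% and 88% in total RNA. A gene not called may thus still have changed. Python 3.11.15, pandas 2.3.3, NumPy 2.4.6, SciPy 1.17.1 and Matplotlib 3.10.9 were used.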

Additional observations from a re-analysis of the deposited data

How the results depend on the processing

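Over all alternatives other than leaving out a library, 421 values of single genes kept their direction and call, 25 lost and 21 gained the call, and 29 changed sign; with 1 library left out the numbers were 249, 28, 9 and 10. With all libraries kept, the number of genes called ranged from 6 to 8 after s4U and from 6 to 8 within acrylonitrile. This number also changed with a library left out, where a group holds a single library. For the difference between the s4U effects it ranged from 0 to 1, and all genes called from 14 to 3639 (310 in the reported fit; 757 with upper quartile scaling, 1442 unfiltered, 193 with library size only, 480 with DESeq2). In labeled RNA at 4 µM it was 1 with DESeq2 and 1 to 2 with a library left out, and in total RNA at 4 µM 5 to 8 (5 without PDP-0 replicate 1). DESeq2 called 2219 and 3198 genes in labeled RNA at 4 and 8 µM, against 4128 and 5371, and the GC offset 6588 for acrylonitrile alone, against 11303; without PDP-0 replicates 1 and 2, 2750 and 2604 were called at 4 µM.

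The log2 fold changes that changed sign are as follows. With library size only they were DHODH -0.078 after s4U, UPP1 -0.25 and CMPK1 -0.17 within acrylonitrile, and UPP1 -0.058, CAD -0.13 and DHODH -0.27 for acrylonitrile alone. With the GC offset they were CMPK1 -0.039 after s4U, UPP1 -0.17 and CMPK1 -0.11 within acrylonitrile, and UCKL1 -0.0020, CMPK1 0.42, CAD -0.55 and DHODH -0.20 for acrylonitrile alone; with the replicate block added, -0.040, -0.20, -0.11, -0.00033, 0.42, -0.55 and -0.21. UPP1 within acrylonitrile was -0.020 with only the groups compared and -0.0085 with the replicate block, and DHODH for acrylonitrile alone -0.10 unfiltered. With TMM, UPP1 in labeled RNA at 8 µM was 0.066; in total RNA, UCK1 was -0.27 and -0.26, CAD -0.073 and -0.080 at 8 and 4 µM, and DHODH -0.078 at 8 µM. With 1 library left out, UPP1 ranged from -0.13 to 0.46 for acrylonitrile alone, -0.22 to 0.40 within acrylonitrile, -0.17 to 0.23 and -0.18 to 0.027 in labeled RNA at 4 and 8 µM, and -0.15 to 0.051 in total RNA at 8 µM; CMPK1 ranged from -0.57 to 0.11 and -0.54 to 0.14 in labeled RNA at 4 and 8 µM, and DHODH from -0.082 to 0.077 for acrylonitrile alone. The cause was not tested.

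The replicate numbers did not pair the libraries (correlations of deviations between -0.02 and 0.05), and the block gave 7 calls after s4U and 8 within acrylonitrile, where UMPS passed (adjusted p = 0.0470). The median share after 24 h was 78.3% for at least 2 mismatches and 90.3% after background subtraction. The median half-life was 5.89 h after background subtraction, 3.47 h for genes of at least 10 FPM, and 3.22 to 3.29 h with either library left out. UPP1, with 35 to 170 fragments per library, and DHODH were limited by depth.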
